A study of Mus musculus with 7 samples.

Results

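The transcripts described here are those of 35 genes that take up glucose, run glycolysis, handle pyruvate and lactate, or form the pentose phosphate pathway. They were listed by name from their place in the pathways, and all 35 were among the 18951 gene symbols of the table. Of these 35, 33 had a mean normalized count of at least 10 over the pools and were among the 15071 genes tested. RNA came from pools of denuded, ovulated oocytes of C57BL/6 females aged 4 weeks, 4 pools from Nlrp2-null females and 3 from wild-type (WT) females. About 150 oocytes, freed of cumulus cells with hyaluronidase and collected from 3 to 4 mice, went into every pool. The labels do not describe how the null allele was made. Nlrp2 encodes an NLR family protein that eggs store for the early embryo, and the series asks how its loss alters the oocyte transcriptome. Nlrp2 itself stood at 107, 8.19, 1.96 and 63.8 normalized counts in null pools 1 to 4, against 15527, 20129.7 and 16792 in WT pools 1 to 3.

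Glycolysis splits glucose into pyruvate, which is either reduced to lactate by lactate dehydrogenase or oxidised to acetyl-CoA by the pyruvate dehydrogenase complex in mitochondria. The pentose phosphate pathway branches off after hexokinase and makes NADPH and ribose. The mouse oocyte is known to use glucose poorly and to live on pyruvate, much of it supplied by the cumulus cells around it, which are strongly glycolytic.

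The 7 pools held 71073973 to 96330083 reads, and 15958 to 16886 genes per pool were above 0. Oocyte markers were high in all pools, with a summed level over 17 genes of 996969 to 1120437 normalized counts in null pools and 952373 to 1018882 in WT pools. Of 39 listed cumulus and granulosa markers 38 were in the table and none was at 0 in every pool. Their summed level was 168468 to 193436.5 normalized counts in null pools and 158541 to 183903 in WT pools. Its largest parts were Rgs2, Bmpr1b and Serpine2, with means of 79168, 29838 and 18182. The highest pool was 1.24, 1.23 and 1.47 times the lowest for these genes, but 103 times for Inhbb. The sum thus says little about the more variable markers, and whether its reads came from cumulus cells was not tested. Hsd3b1, a steroid-making enzyme of follicle cells, had 8633 to 20602 normalized counts in null pools and 5292 to 19152 in WT pools. Vcan, a matrix gene of expanding cumulus, had 4739 to 9600 in null pools and 3228 to 7256 in WT pools. Amh, a granulosa hormone, was at 0 in 2 null and 3 WT pools and below 5 in the others. On the log2 scale the mean of the 35 tested markers was 8.65, 8.93, 9.54 and 10.25 in null pools 1 to 4 and 9.14, 8.22 and 8.40 in WT pools 1 to 3. Null 4 thus had the highest and WT 2 the lowest marker mean, and the groups overlapped (difference 0.76, two-sided exact permutation p = 0.171). Of these 35 markers 30 had a higher mean log2 level in null pools (85.7%, against 50.7% of all tested genes) and 5 a lower one. The 30 include Wt1, which passed the filter through the null pools alone, with 110 normalized counts in null 4 and at most 3.92 elsewhere. An unadjusted limma p under 0.05 was found for 7 (20%, against 10.2%), all higher in null pools. The genotypes did not overlap for 4 higher and 1 lower marker (14.3%, against 9.91%). For oviduct markers the mean log2 level was 6.58, 6.33, 6.17 and 7.75 in null pools and 6.05, 5.86 and 5.58 in WT pools. These groups did not overlap (difference 0.88, two-sided exact permutation p = 0.0571), and 8 of the 9 tested oviduct markers were higher in null pools. Of these, Krt7 (means 99.0 in null and 2.64 in WT pools) and Muc1 (17.1 and 0.70) passed the filter through the null pools alone. Pax8, the lower one (0.77 and 26.2), passed through the WT pools alone. The count and the means thus rest in part on genes that were high in only 1 genotype. Null 4 also stood highest for theca, stroma and endothelial markers (8.88, the others 3.71 to 5.65). In pooled RNA, fewer cells of a type and less RNA per cell cannot be told apart.

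The oocyte held the steps of the pathway at very unequal transcript levels. Levels are given as normalized counts per kb of summed exon length, a rough scale for comparing different genes. This length exceeds the longest transcript unevenly, with 5001 against 2432 bases for Pkm, 2911 against 1549 for Aldoa and 3506 against 3260 for Slc2a1. The order of steps with similar levels therefore depends on the length used. Among glucose uptake and the steps of glycolysis to lactate, lactate dehydrogenase was the most abundant by far, at 69074 to 79488 per kb over the 7 pools. The next of these steps were GAPDH (1571 to 3336), glucose uptake (1328 to 1884), pyruvate kinase (1246 to 1764) and phosphoglycerate mutase (815 to 1834). Aldolase (865 to 1477), phosphoglycerate kinase (602 to 1252) and phosphoglucose isomerase (466 to 687) lay in the middle. Phosphofructokinase (221 to 321), which commits sugar to glycolysis, triosephosphate isomerase (175 to 318) and hexokinase (54.8 to 122), which traps glucose in the cell, were low. The 3 listed enolase genes together came to at most 70.6 per kb and were at 0 in WT 3. The neighbours in this order mostly overlapped between pools, while the ranges of hexokinase and of lactate dehydrogenase overlapped with no other of these steps but, for hexokinase, enolase.

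**Figure D1:**
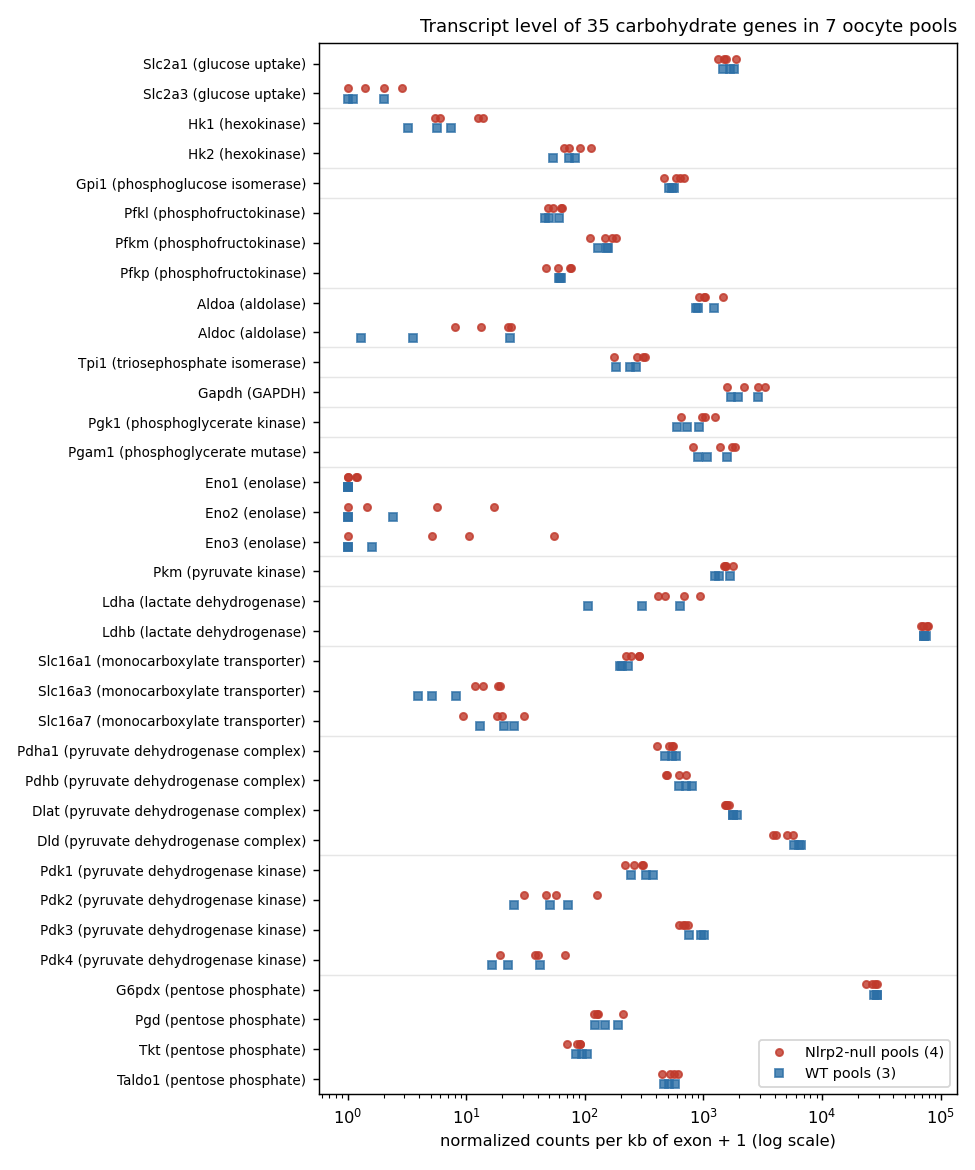
Transcript level of each of the 35 genes in 4 Nlrp2-null pools (circles) and 3 WT pools (squares), as normalized counts per kb of exon plus 1 on a log axis; each point is 1 pool. Ldhb and G6pdx lie far above all other members, and Slc2a3 and Eno1 lie at or near 0 in both genotypes.

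Glucose enters cells through facilitative transporters, and of the 2 listed, almost all message was Slc2a1, which encodes the widely expressed transporter. Its mean over the 7 pools was 1596 per kb. Further sugar transporters, outside the listed 2, had means of 258 (Slc2a12), 175 (Slc2a10), 108 (Slc2a9) and 85.7 (Slc2a13) per kb. Slc2a1 (chromosome 4, 119108711 to 119137983, plus strand, GRCm38) had 6605, 5181, 4655 and 5389 normalized counts in null pools and 6368, 5902 and 5077 in WT pools. The groups overlapped, and null over WT gave -0.09 on the log2 scale (SE 0.129, limma adjusted p = 0.857). Slc2a3, the high-affinity transporter typical of neurons and later embryos, had 0, 13, 3 and 7 reads in null pools and 7, 0 and 1 in WT pools, and stayed below the filter. A count of 0 allows up to 3 reads, or 3.25 normalized counts in null 1 and 2.85 in WT 2.

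For hexokinase the leading message was Hk2, the isoform typical of muscle and fat, and not Hk1, the isoform of most other tissues. Hk2 had 394, 537, 662 and 429 normalized counts in null pools and 486, 314 and 433 in WT pools. Hk1 had 108, 37.9, 98.1 and 42.9 in null pools and 54.8, 19.0 and 39.5 in WT pools. Both ranges overlapped between genotypes. Per kb, Hk2 made up 90.8% ± 5.01 of the pair in null pools (SD, n = 4) and 94.2% ± 1.63 in WT pools (SD, n = 3).

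Phosphofructokinase was the family with the most even mixture. Pfkm, the muscle isoform, made up 55.4% ± 4.82 per kb in null pools and 56.5% ± 2.75 in WT pools (SD, n = 4 and 3). Its normalized counts were 363, 486, 611 and 558 in null pools and 427, 514 and 519.5 in WT pools. The platelet isoform Pfkp had more reads, at 851 ± 183 normalized counts in null pools and 815 ± 14.2 in WT pools (SD, n = 4 and 3), but spreads over 13401 bases of annotated exon against 3340 for Pfkm. The liver isoform Pfkl stood at 376 ± 49.3 and 341 ± 51.8. The 3 isoforms had log2 fold changes between 0.03 and 0.14, each smaller than its standard error.

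Between phosphofructokinase and pyruvate the oocyte held 1 main gene per step, apart from enolase. Aldoa, the ubiquitous aldolase, had 2683 to 4264 normalized counts in null pools, highest in null 4, and 2518 to 3576 in WT pools, highest in WT 1. The brain aldolase Aldoc had at most 74.8. Gapdh, which reduces NAD while oxidising triose phosphate, had 6492, 9160.0, 12001 and 13787 in null pools and 11944, 7003 and 8104 in WT pools. Null 4 was highest and null 1 lowest, so the spread among null pools exceeded the difference between genotypes. Pgam1, the mutase, followed the same pattern, at 1616, 2733, 3434 and 3634 in null pools and 3144, 1779 and 2135 in WT pools. Pgk1, which makes the first ATP of the pathway, had 1463, 2307, 2163 and 2809 in null pools and 1616, 1351 and 2058 in WT pools. Pkm, pyruvate kinase, had 7634, 7705, 7466 and 8822 in null pools and 8301, 6231 and 6752 in WT pools. Gpi1, the isomerase after hexokinase, had 4434, 4086, 3006 and 3749 in null pools and 3528, 3617 and 3308 in WT pools. Tpi1 had 482, 876, 748 and 844 in null pools and 654, 498 and 744 in WT pools. All of these ranges overlapped between genotypes.

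Enolase was the step with almost no listed message. Eno1, the ubiquitous enolase, was listed at 0 in null 1, null 2 and all WT pools, and at 1 read each in null 3 and null 4. In the annotation 72.2% of the 50-base windows of the longest Eno1 transcript also occur in a transcript of another gene, and 70.5% occur in its copy Eno1b. Eno1b had 55.3, 60.4, 61.8 and 57.6 normalized counts in null pools and 72.7, 39.0 and 56.0 in WT pools. Whether reads of Eno1 were left uncounted was not tested, so its true level is unknown. Eno2, the neuronal enolase, had 2, 0, 78 and 21 reads in null pools and 0, 7 and 0 in WT pools. Eno3, the muscle enolase, had 0, 7, 96 and 16 reads in null pools and 1, 0 and 0 in WT pools. Most reads of Eno2 and Eno3 came from null 3, and both genes passed the filter through the null pools alone.

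Lactate dehydrogenase was almost wholly of the heart type. Ldhb, whose tetramer works well in oxidising lactate to pyruvate, had 124147, 120228, 107372 and 111436 normalized counts in null pools and 114618, 117550.0 and 114310.0 in WT pools. Its level per kb exceeded that of 99.9% of the tested genes, and its highest pool was 1.16 times its lowest. Ldha, the muscle type that favours the making of lactate, had 1368, 1562, 2264 and 3076 normalized counts in null pools and 2116, 348 and 991 in WT pools. Per kb, Ldhb exceeded Ldha in every pool, by 76.4 to 191 times in null pools and by 114 to 712 times in WT pools. These folds would be smaller with the longest transcript (1304 bases for Ldhb, 1815 for Ldha) than with summed exon length (1570 and 3310). Ldhb thus made up 99.1% ± 0.356 of the family in null pools and 99.5% ± 0.368 in WT pools (SD, n = 4 and 3). The log2 fold change of Ldhb was 0.00 (SE 0.0734, limma adjusted p = 0.995), with a 95% interval of the fold from 0.899 to 1.12.

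The start of Ldhb and the upstream of 2 starts of Ldha differ in the motif ACGTG. This motif lies at the core of sites bound by hypoxia-inducible factor and, as CACGTG, of E-boxes. The other Ldha start is not shown. The RefSeq promoters (GRCm38.p6, 250 bases before to 50 after the start) are shown because these isoforms of 1 enzyme stood so far apart in level. Capitals mark ACGTG on either strand, and CACGTG holds it on both.
Ldhb promoter, chr6:142507908-142508207, minus strand: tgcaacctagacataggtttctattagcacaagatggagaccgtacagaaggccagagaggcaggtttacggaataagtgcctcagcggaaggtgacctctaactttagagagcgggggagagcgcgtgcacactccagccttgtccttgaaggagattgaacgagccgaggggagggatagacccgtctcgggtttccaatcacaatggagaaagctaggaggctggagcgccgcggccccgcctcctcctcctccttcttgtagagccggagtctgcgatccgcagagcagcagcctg
Ldha promoter, the upstream of 2 starts, chr7:46845554-46845853, plus strand: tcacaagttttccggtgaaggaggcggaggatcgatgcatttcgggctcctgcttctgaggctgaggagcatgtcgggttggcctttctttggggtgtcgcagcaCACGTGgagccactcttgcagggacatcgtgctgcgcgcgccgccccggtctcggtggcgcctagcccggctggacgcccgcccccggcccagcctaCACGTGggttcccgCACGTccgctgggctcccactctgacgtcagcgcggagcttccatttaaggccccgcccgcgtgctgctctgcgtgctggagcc
The Ldha window holds 3 such runs and the Ldhb window 0. Of all 32851 listed promoters, 19.6% hold the motif, as do 19 of the 47 (40.4%) listed for 33 of the 35 genes. A match describes these letters and is not evidence of binding.

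Among the 3 listed monocarboxylate transporters, which carry lactate and pyruvate across the membrane, Slc16a1 led. It had 1260.4, 1082, 1265 and 973 normalized counts in null pools and 1019, 909 and 864 in WT pools. Slc16a7, a transporter with high affinity for pyruvate, stood at 219.9 ± 105 in null and 222 ± 73.4 in WT pools (SD, n = 4 and 3). Slc16a3, the lactate exporter of glycolytic cells, stood at 14.8 ± 3.51 per kb in null and 4.75 ± 2.16 per kb in WT pools. Its mean over the 7 pools was the lowest of the 3 transporters per kb, but in null 4 it lay above Slc16a7 (18.1 against 8.31 per kb).

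Of the 4 listed genes of the pyruvate dehydrogenase complex Dld, the lipoamide dehydrogenase subunit that other mitochondrial complexes share, was the most abundant message. Per kb it stood at 4656 ± 857 in null and 6289.5 ± 393 in WT pools (SD, n = 4 and 3). Dlat, the acetyltransferase core, came next at 1583 ± 55.6 and 1826 ± 78.2. The pyruvate-cleaving subunits followed, with Pdhb at 579 ± 109 and 711 ± 95.5 and Pdha1 at 505 ± 66.3 and 536 ± 58.8. Of the kinases that switch the complex off, Pdk3 led per kb, with 64.7% ± 4.11 of the family in null and 69.8% ± 3.15 in WT pools. Pdk1 held 25.4% ± 2.30 and 24.3% ± 1.95, while Pdk2 and Pdk4 held at most 12.0% and 6.16% in any pool.

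In the pentose phosphate pathway the first enzyme stood far above the others. G6pdx, glucose-6-phosphate dehydrogenase, had 85989, 89322, 73094 and 81103 normalized counts in null pools and 84980.3, 89973 and 89229 in WT pools. Its level per kb exceeded that of 99.5% of the tested genes. In each pool it was 126 to 241 times that of Pgd, the next NADPH-producing enzyme, and 266 to 378 times that of the transketolase gene Tkt. These folds rest on summed exon length and would be smaller with the longest transcript. The 2 lengths are 3080 and 2652 bases for G6pdx, 6447 and 3644 for Pgd, and 7355 and 3223 for Tkt. Taldo1, transaldolase, stood at 1166 ± 152 normalized counts in null and 1125 ± 128 in WT pools, Pgd at 934 ± 276 and 982 ± 217, and Tkt at 617 ± 72.0 and 691 ± 72.9 (SD, n = 4 and 3). No gene of this branch passed the test between genotypes (limma adjusted p from 0.708 to 0.951).

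**Figure D2:**
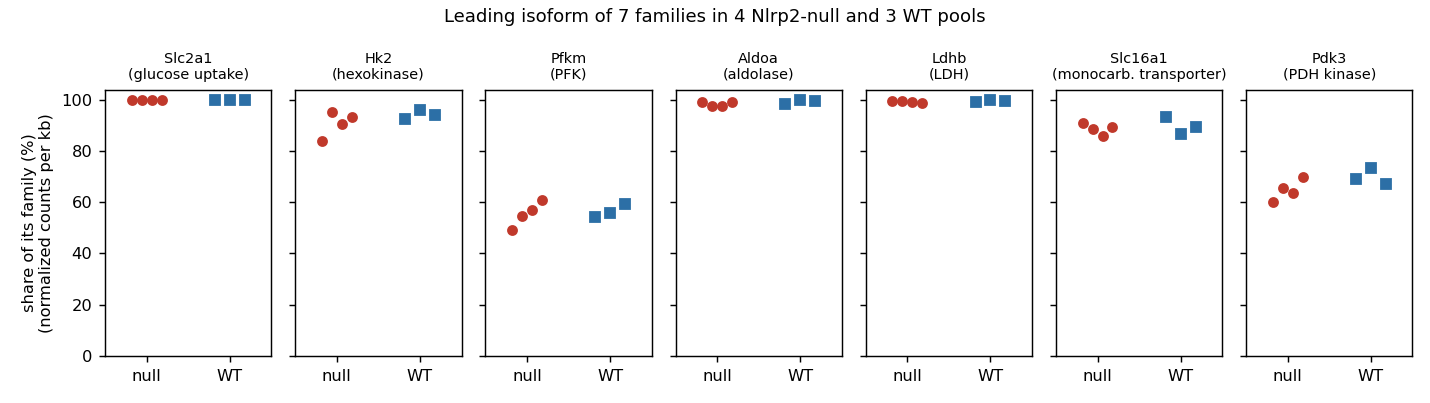
Share of the leading isoform among the listed genes of its family, in percent of normalized counts per kb, for 7 families. Each point is 1 of 4 Nlrp2-null (left) or 3 WT (right) pools. Slc2a1, Aldoa and Ldhb hold at least 97.7% in every pool, and the Pfkm share runs from 49.2% to 60.7%.

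The share of the leading isoform was compared between genotypes in 7 families, and none passed at an adjusted p under 0.05. The test was a two-sided exact permutation over all 35 possible assignments of the 7 pools, which can give p = 0.0286 at best. After Benjamini-Hochberg adjustment over the 7 families, a single family with its groups fully apart could not pass 0.05. The adjusted test therefore cannot tell whether any single family differed. The largest difference was in Pdk3, whose share was 59.9%, 65.5%, 63.7% and 69.8% in null pools and 69.1%, 73.2% and 67.0% in WT pools (null minus WT -5.02 percentage points, exact permutation p = 0.143, Benjamini-Hochberg adjusted p = 0.64). The other 6 families had exact permutation p from 0.229 to 0.743. The minor isoforms were not tested. Among them Slc16a3, picked out after its values were seen, held 3.45% to 7.35% of the 3 listed transporters in null pools. In WT pools it held 1.35% to 3.02%, without overlap. Enolase was left out, since its 3 genes were all at 0 in WT 3.

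Whether loss of Nlrp2 altered these genes was tested with limma on log2(normalized count + 1), with p values adjusted over all 15071 tested genes. None of the 33 members passed at an adjusted p under 0.05, where 10 of all genes did (0.0664%, with 0.0531% higher and 0.0133% lower in null pools). edgeR called none of them either, against 0.0464% of all genes (0.0398% higher, 0.00664% lower). DESeq2 called Dld alone, as lower, against 1.54% of the genes it gave an adjusted p (0.885% higher, 0.654% lower). An unadjusted limma p under 0.05 was found for 5 of 33 members (15.2%), against 10.2% of all genes. Of these, 2 were higher in null pools (5.28% of all genes) and 3 were lower (4.93%). The genotypes did not overlap in 4 of 33 members (12.1%), against 9.91% of all genes. Here 1 member was higher in null pools (4.74% of all genes) and 3 were lower (5.16%), so these shares lay near the background. The median log2 fold change was 0.14 over the members and 0.01 over all tested genes, with 22 of 33 members and 50.7% of all genes above 0. Without Eno2 and Eno3, which were tested only through the null pools, 20 of 31 members were above 0 and the median was 0.12.

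**Figure D3:**
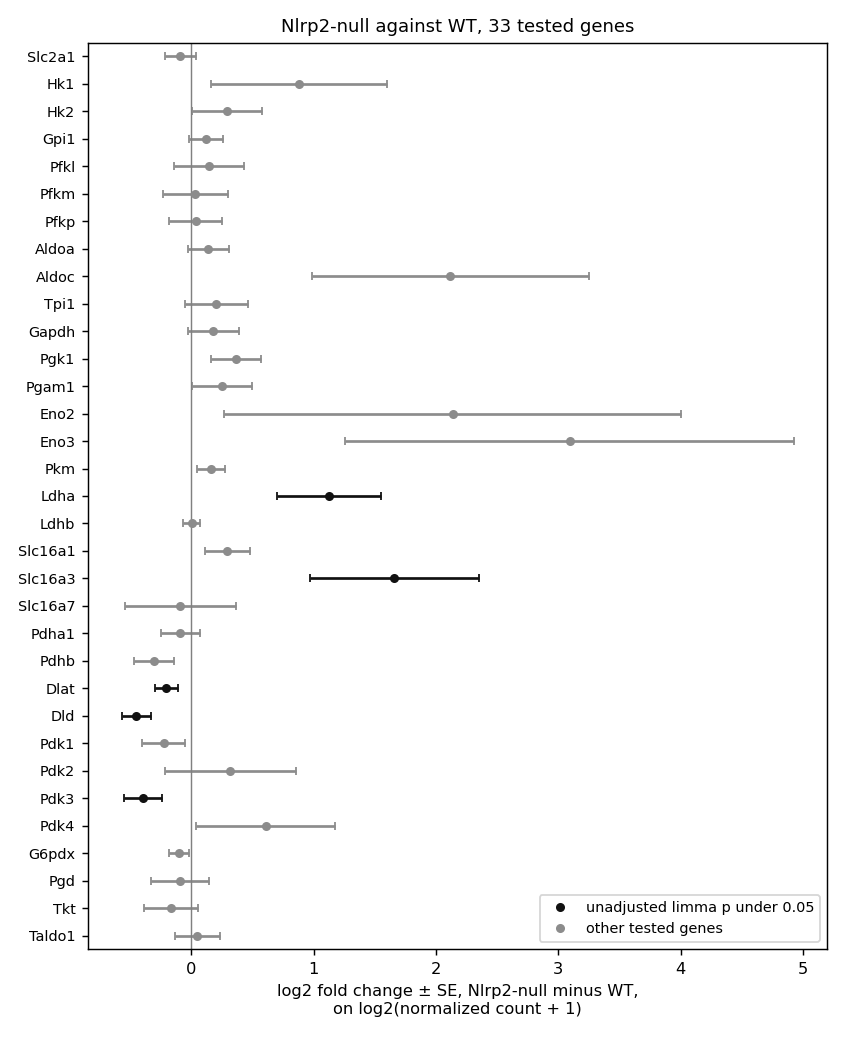
log2 fold change of Nlrp2-null over WT (point) with its standard error (bar) for the 33 tested genes, in pathway order from glucose uptake to the pentose phosphate genes. The bars of Aldoc, Eno2 and Eno3, all low genes, are the widest, and those of Ldhb and G6pdx are the narrowest.

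Dld had the smallest p value of the members. It lies on chromosome 12 (31331277 to 31351453, minus strand) and had 20938, 18518, 14155 and 14982 normalized counts in null pools, against 21534, 23669 and 24289.8 in WT pools. All 4 null pools lay below all 3 WT pools, null 3 and null 4 by the most. The log2 fold change of Dld was -0.45 (SE 0.12, 95% interval of the fold 0.614 to 0.873). Its adjusted p was 0.212 in limma, 0.286 in edgeR and 0.0381 in DESeq2. Within the lower range of library numbers (2 null and 2 WT pools) the log2 difference was -0.20, and within the higher range (2 null pools and 1 WT pool) it was -0.74. Without null 3 and null 4 it was -0.23 (limma adjusted p = 0.691).

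The other listed genes of the complex that Dld serves had lower means in null pools too. All 4 listed subunit genes had negative log2 fold changes, Dld at -0.45, Pdhb at -0.31, Dlat at -0.21 and Pdha1 at -0.09. The subunit gene Pdhx was placed in another list and is not among these 4, so the count does not cover the whole complex. Pdha1 turned positive without null 3 (0.0083), without null 3 and null 4 together (0.038) and when the fit held the cumulus marker mean (0.024). Dlat (chromosome 9, 50634633 to 50659780, minus strand) had 8098, 7772, 7580.4 and 7481 normalized counts in null pools and 8711, 9365 and 8697 in WT pools. Its groups did not overlap, yet it did not pass (SE 0.0936, limma adjusted p = 0.474). Its log2 difference was -0.19 and -0.21 within the lower and the higher library-number range.

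Pdk3, the leading kinase of the complex, lay on the same side. It lies on chromosome X (93764607 to 93832201, minus strand) and had 1601, 1902, 1784 and 1714 normalized counts in null pools and 1920.4, 2585 and 2444 in WT pools. The groups did not overlap, although null 2 and WT 1 nearly met. Null over WT was -0.40 on the log2 scale (SE 0.152, limma adjusted p = 0.394), with -0.35 and -0.48 within the lower and the higher library-number range. The other kinases were mixed: Pdk1 had a log2 fold change of -0.23 (SE 0.174), Pdk2 of 0.32 (SE 0.534) and Pdk4 of 0.61 (SE 0.567).

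**Figure D4:**
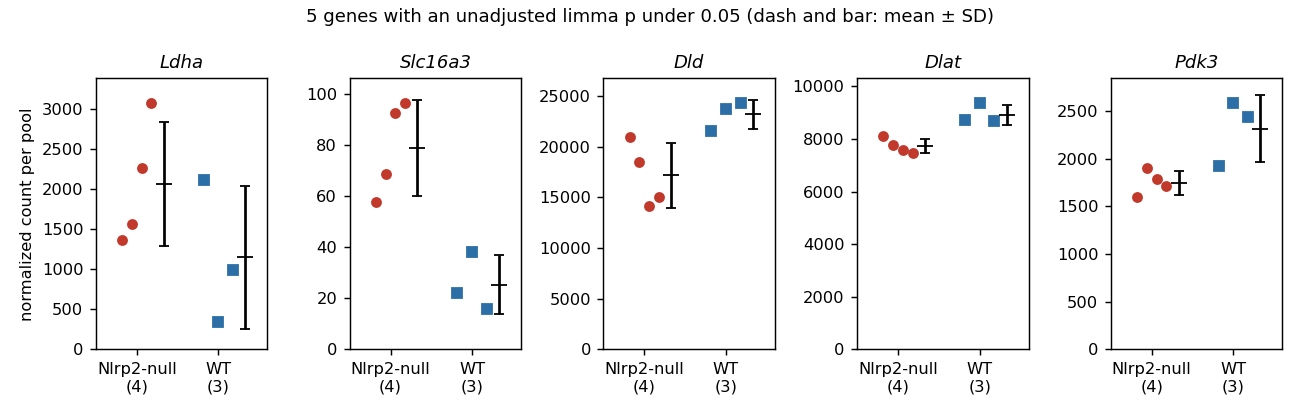
Normalized counts of the 5 members with an unadjusted limma p under 0.05 in each Nlrp2-null pool (left) and WT pool (right), with the mean and SD as a dash and bar; the y axes start at 0. The groups overlap for Ldha and are apart for Slc16a3, Dld, Dlat and Pdk3.

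On the lactate side, Slc16a3 and Ldha had higher values in null pools. Slc16a3 (chromosome 11, 120948480 to 120960868, plus strand) had 57.4, 68.6, 92.2 and 96.3 normalized counts in null pools, against 22.1, 38.0 and 15.6 in WT pools. The groups did not overlap, but the values rest on 53 to 94 reads per null pool and 19 to 40 per WT pool. Null over WT was 1.66 on the log2 scale (SE 0.689, limma adjusted p = 0.436), with 1.09 and 2.52 within the lower and the higher library-number range. Ldha (chromosome 7, 46841475 to 46855627, plus strand) had a log2 fold change of 1.12 (SE 0.424, limma adjusted p = 0.383), with 0.77 and 1.41 within those ranges. WT 1 lay above null 1 and null 2, so the groups overlapped. Without WT 2 the log2 fold change of Ldha was 0.44, and without WT 1 it was 1.74.

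Ldha ordered the pools as the cumulus markers did. The 7 pools had the same order by Ldha as by the cumulus marker mean, WT 2 lowest and null 4 highest, and no other member had its 7 pools in that order. In a fit that also held the marker mean, the log2 fold change of Ldha was 0.25 (limma adjusted p = 0.894), that of Slc16a3 was 1.47 and that of Dld was -0.24. Gapdh and Pgam1 also had their 2 highest values in null 4 and null 3, which held the 2 highest marker means, while Ldhb was lowest in null 3. The part of residual cumulus RNA in these values was not tested further.

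**Figure D5:**
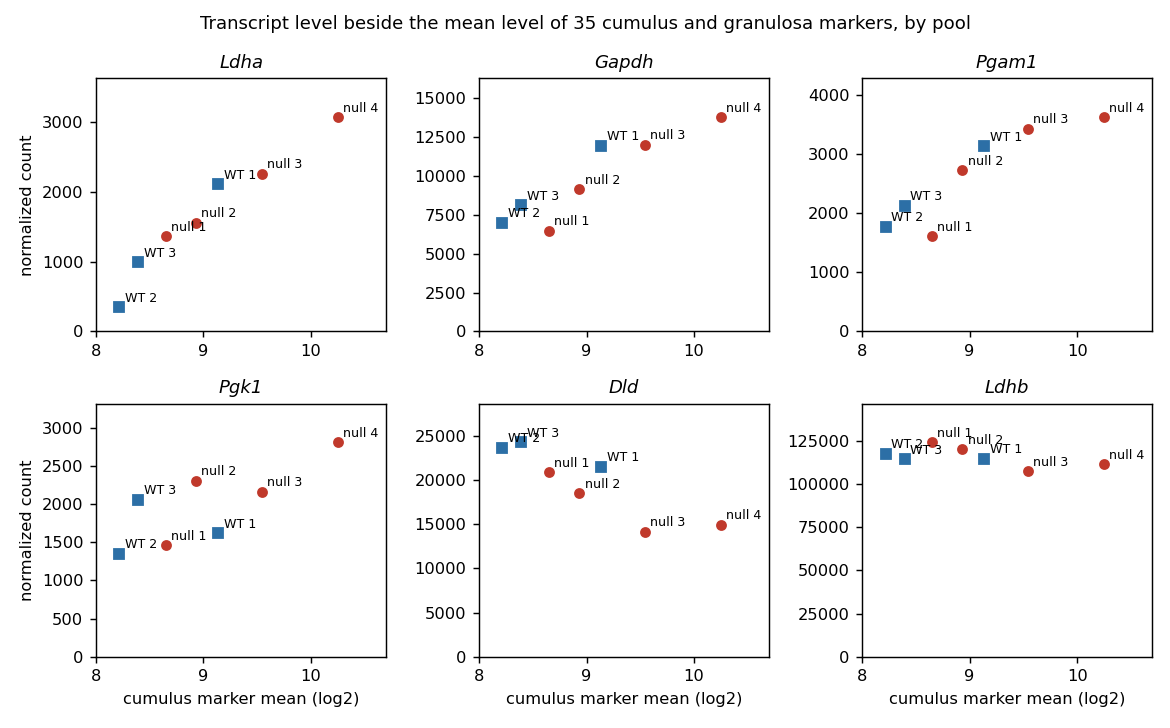
Normalized count of 6 genes (y axes from 0) beside the mean log2 level of 35 cumulus and granulosa markers (x axis) in each Nlrp2-null (circle) and WT (square) pool; the genes were chosen after their values were seen. Ldha, Gapdh and Pgam1 are highest in null 4, Dld is lowest in null 3, and Ldhb stays between 107372 and 124147.

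Of the glycolytic enzymes, hexokinase to pyruvate kinase, 13 genes had a mean of at least 10 normalized counts in both genotypes, which leaves out the 3 enolases. All 13 had a positive log2 fold change, with a median of 0.18, but none had even an unadjusted limma p under 0.05. The largest among genes above 1000 normalized counts was that of Pgk1, at 0.37 (SE 0.206, limma adjusted p = 0.58). The number above 0 was 11 with equal medians in every pool, 8 when the fit held the marker mean and 9 without null 3 and null 4. Of the 13 genes 4 had their highest value in null 3 and 5 in null 4, while 4 had their lowest in null 1 and 6 in WT 2.

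Other genes around these pathways came from 7 further lists. None of the tested genes of any list passed in limma, edgeR or DESeq2, and the list medians lay between -0.05 and 0.22, against 0.01 over all genes. Bpgm, which makes and breaks 2,3-bisphosphoglycerate, had a higher mean per kb over the 7 pools than any member, though in WT 1 it lay below Ldhb (72821 against 73005 per kb). It had 324889, 352727, 350090.0 and 312699 normalized counts in null pools and 261281, 292610.0 and 319110.0 in WT pools. Null over WT was 0.21 on the log2 scale (SE 0.0798, limma adjusted p = 0.397). Per kb, Bpgm exceeded 99.9% of the tested genes. Txnip, which restrains glucose uptake, led 10 regulators of glycolytic flux, at 34897 ± 4248 normalized counts in null and 31484 ± 3385 in WT pools (SD, n = 4 and 3). Me1, the cytosolic malic enzyme, led 19 tested lactate and pyruvate genes at 33007 ± 2255 and 33134 ± 2042.

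The tricarboxylic acid cycle, which burns the acetyl-CoA, had 11 of 20 log2 fold changes above 0 and a median of 0.00. Cs, citrate synthase, was its most abundant message per kb, at 41278 ± 1394 normalized counts in null and 41165 ± 2559 in WT pools (SD, n = 4 and 3). An unadjusted limma p under 0.05 was found for 3 of the 20 (15%, against 10.2% of all genes), Suclg2 at 0.24 (SE 0.101), Sucla2 at -0.38 (SE 0.161) and Sdha at -0.22 (SE 0.0954), with adjusted p from 0.437 to 0.46. Suclg2 and Sucla2 encode the alternative nucleotide-specific subunits of succinyl-CoA synthetase. Suclg2 had 6086, 6481, 6241 and 6727 normalized counts in null pools and 5246, 5295 and 5721 in WT pools, with no overlap. Sucla2 had 3404, 3273, 2441 and 2426 in null pools and 3061, 3839 and 4345 in WT pools, with overlap. In the pentose list Prps2, which makes phosphoribosyl pyrophosphate, had 228, 87.0, 405 and 277 in null pools and 74.8, 149 and 48.6 in WT pools (1.40, SE 0.563, limma adjusted p = 0.412). Slc2a12 led the 5 tested further sugar transporters, Gys1 the 13 glycogen and gluconeogenesis genes and Rpe the 9 further pentose phosphate genes. Their log2 fold changes were 0.22 (SE 0.21), -0.19 (SE 0.151) and -0.01 (SE 0.143).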

How the data were processed

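The values used are a deposited signal, DESeq2 normalized counts per gene symbol, which the authors obtained by dividing read counts by each library's size factor, per the file headers and name. Dividing each value by what 1 read is worth in its library gave a whole number, within 0.01, for 100% of values, so whole reads were recovered. STAR 2.5.0a, TopHat2 2.0.9, featureCounts 1.5.0-p1, HTSeq, DESeq2 1.22.2, DESeq and the builds GRCm38 and mm10 appear in the submitters' processing notes. Which of them made the table, and whether counting used strand, was not given in the sources used here. A second deposited table was not used.

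limma 3.58.1 (R 4.3.3) with a variance trend was fitted to log2(normalized count + 1), Nlrp2-null minus WT, over 15071 genes with a mean of at least 10. The pseudocount pulls fold changes of low genes towards 0, yet a difference of mean logs need not match a ratio of means: Aldoc had 2.12 here and 0.92 in edgeR. Alternatives used edgeR 4.0.16 and DESeq2 1.42.0 on the recovered reads, other pseudocounts (0.5, 10), filters (none, 100) and scaling, covariates, and left out pools. Library numbers in the labels fall into a lower and a higher range, which were compared as possible batches. Pools were the replicates, as the labels list them separately, and no 2 of a genotype agreed within sampling noise (chi-square over its degrees of freedom 32.8 or more). Amplified reads are not independent molecules.

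Lengths, positions and overlaps came from GENCODE M21 (GRCm38) and promoters from RefSeq. An exon of another gene overlaps 11 of the 35 genes antisense and 3 in sense. In 12 (Gpi1, Aldoa, Tpi1, Gapdh, Pgk1, Pgam1, Eno1, Pkm, Ldha, Ldhb, G6pdx and Taldo1) at least 5% of 50-base windows of the longest transcript occur in another gene, often a processed copy, so their levels are uncertain. The shared part was largest in Eno1 (72.2%), Pgk1 (68.0%), Pgam1 (41.5%) and Pkm (34.4%), so the place of these steps in the order of levels is uncertain too. Summed exon length includes retained introns and alternative ends. Values per pool were given for the leading gene of each step and for members with an unadjusted p under 0.05. Of the other lists, the gene highest per kb and those under that p were named. The members and lists were chosen with earlier results of these data known. The fits were tested on simulated data.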

Additional observations from a re-analysis of the deposited data

Results flagged for a closer look

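In the 4 null pools the value of Pgd, the second NADPH-producing enzyme of the pentose phosphate pathway, was 1346 normalized counts in null 4, against 756 to 818 in null pools 1 to 3. Its gap to the nearest pool was 0.895 of the range of the group. It was flagged among 40 such groups, of which chance flags about 1 in 20. WT 1, at 1212, lay near it.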

How the results depend on the processing

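No member passed under any limma or edgeR alternative, and 1, Dld, passed in DESeq2 (log2 fold change -0.43). All genes called numbered 10, and 6 with equal medians, 200 in DESeq2, 1 with the replicate block and 0 without null 3 and null 4; leaving out 1 pool gave 2 (without null 3) to 16 (without null 1), with 4 without null 4 or WT 2 and 5 without WT 3. The replicate numbers do not pair the pools (correlation of deviations -0.163, 0.0192 and -0.0122 for numbers 1 to 3), and the block called 0 members. The block fit held replicate numbers 1 to 3 only, so null 4 was left out of it. Of the members' log2 fold changes, these changed sign, none of them called, and the cause was not tested. With equal medians Pfkm was -0.028, Pfkp -0.023, Ldhb -0.058 and Taldo1 -0.012. With the replicate block, and so without null 4, Pfkm was -0.026, Aldoa -0.0027 and Slc16a7 0.25. The block leaves the fold changes as they are when null 4 alone is left out (median over the members 0.11 in both settings). With the library-number range in the fit Pfkm was -0.026. With the cumulus marker mean in the fit Pfkm was -0.12, Aldoa -0.13, Tpi1 -0.029, Gapdh -0.33, Pgam1 -0.27, Slc16a7 0.43, Pdha1 0.024 and Taldo1 -0.023. Without null 3 and null 4 Slc2a1 was 0.023, Pfkl -0.014, Pfkm -0.21, Gapdh -0.19, Pgam1 -0.12, Eno2 -0.15, Slc16a7 0.0079, Pdha1 0.038 and Taldo1 -0.095. Leaving out 1 pool gave ranges of -0.070 to 0.18 for Pfkm, -0.052 to 0.18 for Pfkp, -0.0027 to 0.30 for Aldoa, -0.033 to 0.037 for Ldhb, -0.38 to 0.25 for Slc16a7, -0.18 to 0.0083 for Pdha1, -0.11 to 0.66 for Pdk2, -0.28 to 0.074 for Pgd and -0.034 to 0.13 for Taldo1. The Slc16a1 share differed by 0.623 percentage points without division by length and by -2.83 to 0.522 when a pool was left out, and the Pfkm share by -2.91 to 0.923. Slc2a3 rests on 0 to 13 reads per pool. Eno2 and Eno3 rest on 0 to 78 and 0 to 96, mostly from null 3, so the spread between pools is wide for them. What limits Eno1 was not tested.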
